A study of Mus musculus with 18 samples.

Results

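Accessible chromatin was compared between the livers of 2 refed mice lacking JMJD1C in hepatocytes (JMJD1C-LKO) and the livers of 2 fasted wild-type (WT) mice, to ask whether refed knockout liver keeps the fasted pattern. These 4 ATAC-seq libraries were chosen by genotype and feeding state alone, out of 6 ATAC-seq libraries and 18 samples in the series, and the 2 refed WT livers were used as the other WT state. The mice were C57BL/6J. JMJD1C-LKO mice carried a floxed Jmjd1c gene and Cre driven by the albumin promoter, which is active in hepatocytes. Liver cells in which this promoter was never active kept the gene. WT mice were littermates on the same chow diet for 6 to 8 weeks. Refed mice had an overnight fast and then a high-carbohydrate diet, for 6 h per the labels and 8 to 16 h per the general methods, which give an age of 12 weeks. The labels describe this same treatment for every sample, and the fasted state was read from the sample titles and from the peak names inside the files. Nuclei of each liver were processed separately, so each library is 1 animal. Fasted JMJD1C-LKO chromatin was not analysed here, so the effect of refeeding within the knockout could not be compared.

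JMJD1C is a Jumonji-domain demethylase that acts on lysine 9 of histone H3, a residue whose dimethylation (H3K9me2) goes with closed chromatin. Feeding raises insulin and turns on fatty acid synthesis genes in liver through factors such as USF-1 and SREBP-1c, and fasting turns on gluconeogenesis and fatty acid oxidation. In ATAC-seq a transposase inserts adapters into open DNA, so reads pile up at active promoters and enhancers. Promoters of broadly used genes, often rich in CG, are open in nearly all cells.

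Each liver is represented by a list of peak summits, single positions with a score, the −log10 of the MACS2 q-value. The lists held 1450 and 825 summits in JMJD1C-LKO replicates 1 and 2, 5220 and 7632 in fasted WT liver, and 5027 and 3119 in refed WT liver. The files do not give the depth of each library, and scores grow with depth. In the main comparison scores were therefore used only to rank summits within a liver, with rank 1 the strongest. A limit on the score itself, at least 5, was tried only as an alternative, and it depends on depth. The 825 strongest summits of each liver were compared, since the shortest list held that many. A pair of livers stood apart. JMJD1C-LKO replicate 2 used its whole list, down to a score of 1.57, where the other 5 livers stopped between 6.41 and 10.5. WT fasted replicate 2 had 40.8% of its strongest summits and 78.0% of all its summits in repeat-masked sequence. Results are therefore given per liver, and with and without these livers where they decide a value. With 2 livers a group, an exact two-sided permutation test over livers cannot give a p below 0.333.

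The strongest summits lay in different kinds of sequence in the 2 JMJD1C-LKO livers. Within 1000 bp of a RefSeq transcript start lay 49.7% of the summits of JMJD1C-LKO replicate 1 (95% Wilson interval 46.3 to 53.1) and 22.7% of those of replicate 2 (19.9 to 25.6), against 51.4% and 40.2% in the fasted livers. Repeat-masked sequence, where over 50% of the 201 bp around the summit is masked, held 25.7% and 48.4% in the JMJD1C-LKO livers and 23.4% and 40.8% in the fasted livers. The refed WT livers were alike in both measures, with 55.4% and 53.9% at transcript starts and 27.9% and 28.7% in masked sequence. Intervals here cover counting error only. Replicate 1 of the knockout and of the fasted group were thus close to the refed WT livers in composition, and replicate 2 of both held more masked summits than any other liver.

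**Figure D1:**
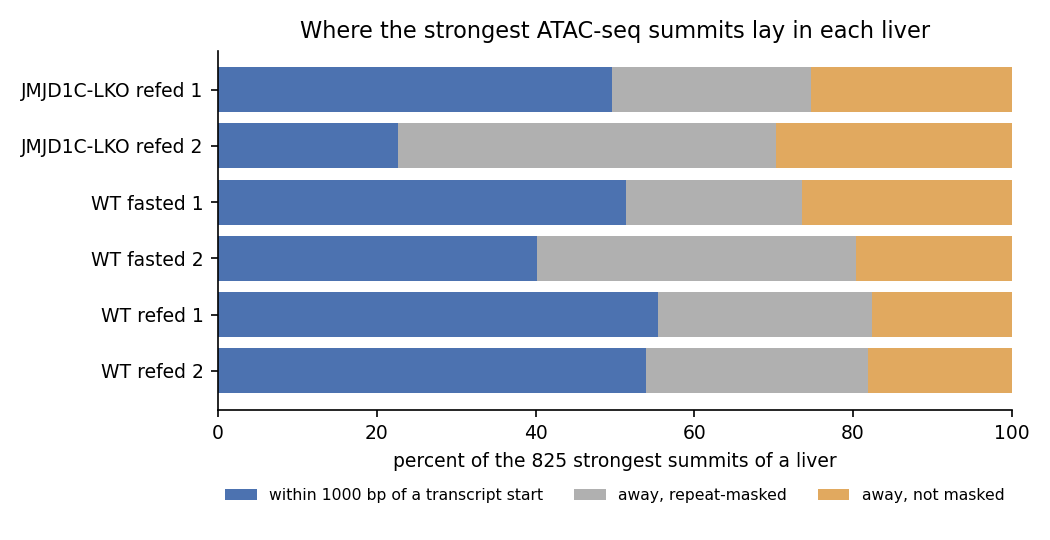
Bars show, for each liver (rows), the percent of its 825 strongest ATAC-seq summits that lay within 1000 bp of a transcript start, away from one in repeat-masked sequence, or away from one in unmasked sequence. JMJD1C-LKO replicate 2 had 22.7% of its summits at transcript starts, the lowest share, and JMJD1C-LKO replicate 1 had 49.7%.

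The promoters that the comparison turns on are shown by the DNA under the summit of JMJD1C-LKO replicate 1. Each run covers 151 bp of GRCm38.p6 (mm10), is read on the strand of the gene, and touches no annotated exon. Capitals mark any of 9 fixed strings that were searched on both strands, of which none contains another: CACGTG (the E-box bound by USF-1), GCGCATGCG (NRF1), CCGGAAGT (ETS), TGACGTCA (CREB), GGGCGG (the GC box), ATTGGC (the CCAAT box), TGTTTAC (FOXA and FOXO), CAAAGTCCA (HNF4A) and TTGCGCAA (C/EBP). Gm2a (chr11:55097827-55097977, plus strand) and Evi5l (chr8:4166269-4166419, plus strand) stand for genes open in both JMJD1C-LKO livers and in all 4 WT livers, and Fbxo5 (chr10:5805697-5805847, minus strand) for those shared with the fasted state alone. Add3 (chr19:53142513-53142663, plus strand), Vkorc1l1 (chr5:129941728-129941878, plus strand), Nmt2 (chr2:3283909-3284059, plus strand) and Fdxr (chr11:115277142-115277292, minus strand) were shared with the refed state alone.
Gm2a: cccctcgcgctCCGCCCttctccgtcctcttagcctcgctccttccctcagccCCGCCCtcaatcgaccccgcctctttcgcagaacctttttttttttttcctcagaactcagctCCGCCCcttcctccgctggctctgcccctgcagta
Evi5l: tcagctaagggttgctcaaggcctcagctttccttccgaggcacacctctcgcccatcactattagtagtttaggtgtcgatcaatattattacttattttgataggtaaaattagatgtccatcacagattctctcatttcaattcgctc
Fbxo5: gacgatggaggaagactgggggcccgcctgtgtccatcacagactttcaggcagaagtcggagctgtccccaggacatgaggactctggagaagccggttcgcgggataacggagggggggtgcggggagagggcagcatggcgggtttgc
Add3: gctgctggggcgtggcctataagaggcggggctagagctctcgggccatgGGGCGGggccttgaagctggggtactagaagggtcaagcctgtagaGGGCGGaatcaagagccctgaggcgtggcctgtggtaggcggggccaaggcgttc
Vkorc1l1: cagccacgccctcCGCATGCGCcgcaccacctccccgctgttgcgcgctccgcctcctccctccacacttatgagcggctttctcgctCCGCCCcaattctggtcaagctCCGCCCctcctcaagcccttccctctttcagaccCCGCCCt
Nmt2: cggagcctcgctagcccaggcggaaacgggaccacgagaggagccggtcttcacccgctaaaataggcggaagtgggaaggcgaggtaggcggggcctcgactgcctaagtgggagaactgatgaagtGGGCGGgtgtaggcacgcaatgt
Fdxr: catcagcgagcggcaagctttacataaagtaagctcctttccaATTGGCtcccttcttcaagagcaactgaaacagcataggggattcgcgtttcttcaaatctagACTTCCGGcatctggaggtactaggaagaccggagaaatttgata
The GC box GGGCGG is in the windows of Gm2a, Add3, Vkorc1l1 and Nmt2, GCGCATGCG in that of Vkorc1l1, and CCGGAAGT and ATTGGC in that of Fdxr. None of the strings is in the windows of Evi5l and Fbxo5. The promoters of Fbxo5, Nmt2 and Fdxr were chosen after their values were seen. Of all 31601 annotated transcript starts 38.7% have GGGCGG within 100 bp, 11.7% have ATTGGC, 5.43% CACGTG, 3.84% CCGGAAGT, 1.86% TGACGTCA, 1.62% TGTTTAC, 1.55% GCGCATGCG, 0.275% CAAAGTCCA and 0.120% TTGCGCAA. A match describes the letters only, and no match says only that they are not in the window.

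The share of strongest summits that refed JMJD1C-LKO liver had in common with fasted and with refed WT liver did not differ beyond the spread between livers. Of the summits of JMJD1C-LKO replicate 1, 48.4% and 45.0% had a partner within 200 bp in WT fasted replicates 1 and 2, and 53.5% and 46.7% in WT refed replicates 1 and 2. For JMJD1C-LKO replicate 2 the shares were 35.6% and 35.5% with the fasted and 35.0% and 33.6% with the refed livers. The 4 knockout-to-fasted pairs averaged 41.1% and the 4 knockout-to-refed pairs 42.2%, a difference of -1.06 percentage points (exact two-sided permutation test over the 4 WT livers, p = 1). The sign turned without JMJD1C-LKO replicate 1 (1.27 points) and without WT refed replicate 1 (1 point), and the difference came to -3.39 points without JMJD1C-LKO replicate 2 and -3.12 points without WT refed replicate 2. After a shift of 10000 bp, 0.121% of the knockout summits matched in each pair.

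The WT states themselves overlapped in this measure. Fasted and refed WT livers shared 48.1% to 61.9% of their strongest summits, with a mean of 54.8%, and the 2 fasted livers shared 53.2% with each other. The 2 refed WT livers shared 62.5%. The JMJD1C-LKO livers shared 41.2% with each other, less than any WT pair, and every pair that included JMJD1C-LKO replicate 2 lay at or below that value.

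**Figure D2:**
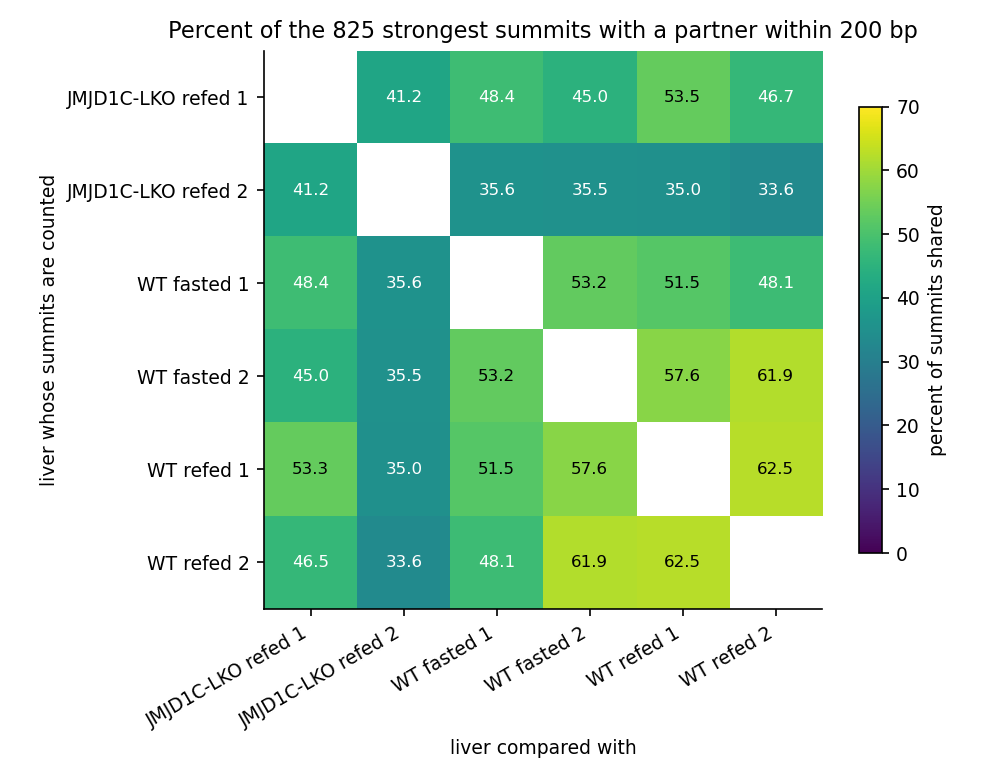
Each cell gives the percent of the 825 strongest summits of the liver in the row that had a summit of the liver in the column within 200 bp. The JMJD1C-LKO rows run from 33.6 to 53.5 against the WT columns, with no gap between the fasted and the refed columns.

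Sharing differed by the place of the summit. At transcript starts, JMJD1C-LKO replicate 1 shared 33.2% and 28.5% of 410 summits with the fasted and 42.9% and 38.3% with the refed WT livers. JMJD1C-LKO replicate 2 shared 21.4% and 17.1% of 187 summits with the fasted and 21.9% and 24.6% with the refed WT livers. In both knockout livers each refed WT value was above each fasted one, and in replicate 2 the nearest pair was 21.9% against 21.4%. The refed WT lists held more summits at transcript starts to match, 457 and 445 against 424 and 332 in the fasted livers. Counted from those WT summits, JMJD1C-LKO replicate 1 held 32.1% and 34.9% of the fasted and 38.1% and 34.8% of the refed ones. Replicate 2 held 9.67% and 9.64%, and 8.97% and 10.6%, so counted this way the states overlapped. Averaged over the knockout livers, 25.1% of the knockout summits at transcript starts were shared with fasted and 31.9% with refed WT liver. The difference was -6.88 points (exact permutation p = 0.333, the smallest possible). Away from transcript starts the order was the other way, with 51.3% shared with fasted and 48.5% with refed WT liver (2.86 points, exact permutation p = 0.667). This split was chosen after the overall values were seen.

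Sharing was highest at the top of the lists. Of the 100 strongest summits of JMJD1C-LKO replicate 1, 93% to 98% had a partner in each WT liver, and of those of replicate 2, 79% to 90%. Among the last 400 summits the shares were 23.0% to 31.3% for replicate 1 and 8.75% to 10.3% for replicate 2. Masked summits away from transcript starts were shared at 68.9% to 74.3% by replicate 1 and at 37.7% to 43.0% by replicate 2. Across the shared summits, ranks in a knockout liver and a WT liver followed each other with Spearman's rho between 0.60 and 0.75 (277 to 441 summits a pair, which share mappability and base composition).

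**Figure D3:**
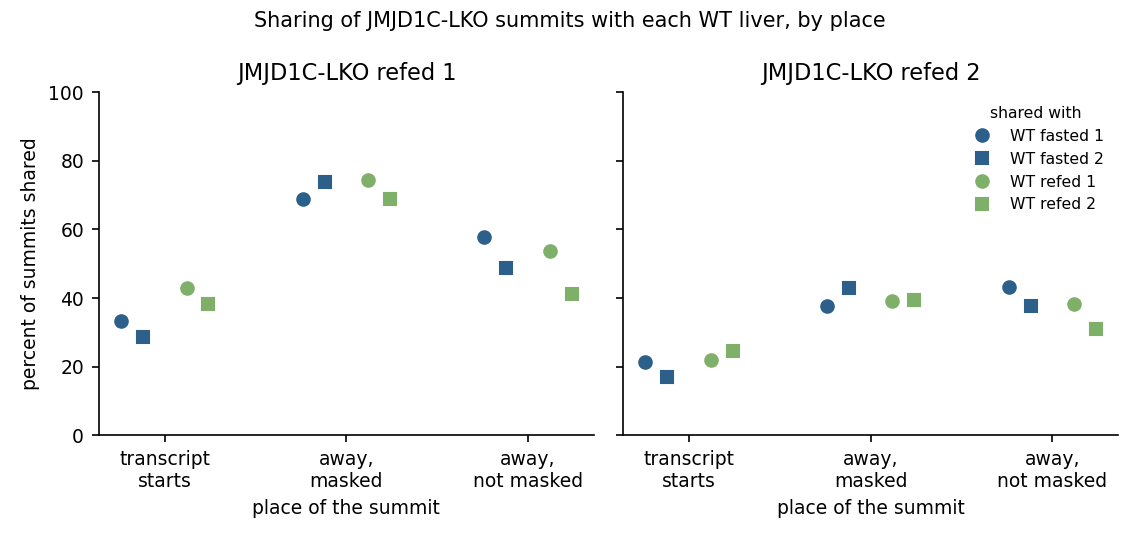
Points give the percent of summits of each JMJD1C-LKO liver (panels) that had a partner within 200 bp in each WT liver (circle, replicate 1; square, replicate 2), by where the summit lay. At transcript starts the refed WT points sit above the fasted ones in both panels, and away from transcript starts they do not.

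Sorting the knockout summits by the WT state that shared them gave small state-specific fractions. For JMJD1C-LKO replicate 1, 391 of 825 summits (47.4%) had a partner in both WT states, 67 (8.12%) in fasted liver only, 109 (13.2%) in refed liver only and 258 (31.3%) in neither. For JMJD1C-LKO replicate 2 these were 283 (34.3%), 53 (6.42%), 42 (5.09%) and 447 (54.2%). The summits shared with refed liver alone lay mostly at transcript starts, 81.7% in replicate 1 and 66.7% in replicate 2, and of those shared with fasted liver alone 49.3% and 34.0% did. Against the full WT lists, 53 summits (6.42%) of replicate 1 stayed without a WT partner, and 272 (33.0%) of replicate 2. Of those 272 summits of replicate 2, 54.0% were in masked sequence and 21 were also found in replicate 1.

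Seen from the WT side, regions among the strongest in one feeding state were found in the knockout livers at lower shares than regions among the strongest in both. Sharing also rose towards the top of the lists in every pair of livers, so this contrast cannot be told apart from rank. Of 324 regions with a strong summit in all 4 WT livers, 272 (84.0%, 79.6 to 87.5) held a summit of JMJD1C-LKO replicate 1 and 217 (67.0%, 61.7 to 71.9) one of replicate 2. Most of these lay away from transcript starts, where replicates 1 and 2 held 208 (92.9%) and 199 (88.8%) of 224 regions. At transcript starts they held 64 and 18 of 100 regions. In masked sequence they held 135 (93.8%) and 134 (93.1%) of 144 regions. Of 56 regions with a summit in both fasted and no refed WT liver, 12 (21.4%, 12.7 to 33.8) were found in replicate 1 and 17 (30.4%, 19.9 to 43.3) in replicate 2. Of 79 regions with a summit in both refed and no fasted WT liver, 27 (34.2%, 24.7 to 45.2) were found in replicate 1 and 8 (10.1%, 5.22 to 18.7) in replicate 2. The knockout livers therefore disagreed. Replicate 1 held more of the refed than of the fasted regions, by 12.7 points, and replicate 2 held more of the fasted ones, by 20.2 points.

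That disagreement did not rest on the place of the regions alone. At transcript starts, 5 of 38 fasted regions (13.2%) were found in each JMJD1C-LKO liver, whereas of 73 refed regions 27 (37.0%) were found in replicate 1 and 8 (11.0%) in replicate 2. Of 18 fasted regions away from transcript starts, 7 were found in replicate 1 and 12 in replicate 2, and 5 in both. None of the 6 refed regions away from transcript starts was found in either, which with so few allows a share of up to 39.0% by the Wilson interval. Of the 12 fasted regions in masked sequence, replicate 2 held 8 and replicate 1 held 3. In regions from all summits, replicate 1 held 9.64% of 280 fasted and 19.8% of 258 refed regions, and replicate 2 held 4.64% and 4.26%. The excess of fasted regions in replicate 2 was thus 2.20 points at transcript starts and 0.379 points in the full lists. In replicate 1 the fasted minus the refed share was -23.8 points at transcript starts and -10.1 points in the full lists. Leaving out a WT liver also loosened the definition of a region, since 1 liver then stood for its state. Without WT fasted replicate 1 or 2, 244 or 345 regions counted as fasted instead of 56. The mean over both knockout livers of the fasted minus the refed share, 3.74 points, then became -13.8 or -7.40 points. Without WT refed replicate 1 or 2, 262 or 280 regions counted as refed instead of 79. The mean difference then became 22.5 or 8.41 points. These changes mix the liver left out with the looser definition.

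**Figure D4:**
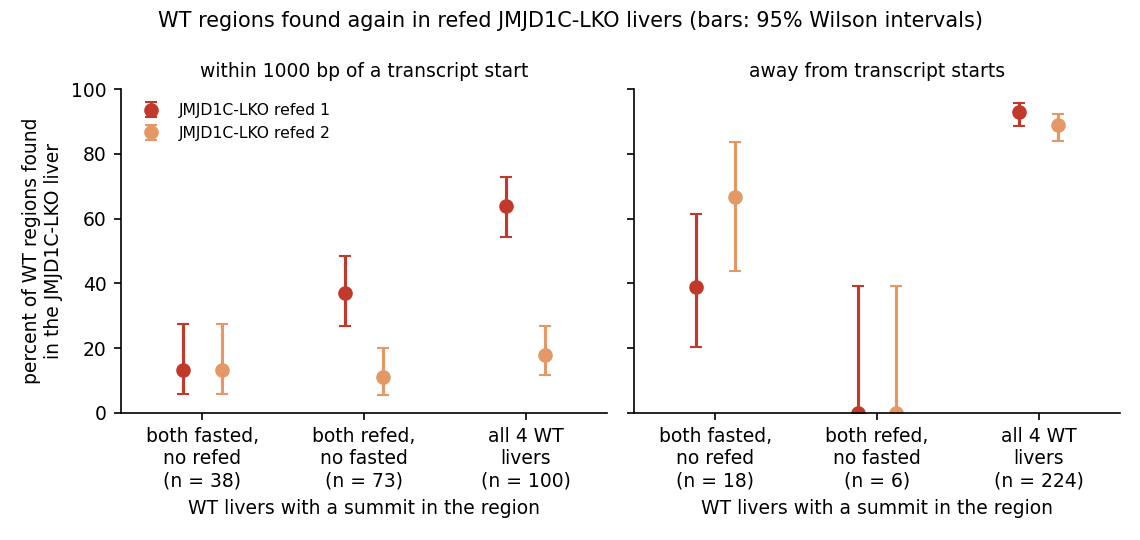
Points give the percent of WT regions of each kind that held a summit of JMJD1C-LKO replicate 1 or 2, with 95% Wilson intervals, at transcript starts (left) and away from them (right). Fasted regions at transcript starts were found at 13.2% in both knockout livers, and refed ones at 37.0% and 11.0%.

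JMJD1C-LKO replicate 2 had the fewest genes with a summit at the transcript start, and replicate 1 lay between the fasted livers. Among the strongest summits, 508 genes (1.94% of 26180 annotated) were marked in JMJD1C-LKO replicate 1 and 232 (0.886%) in replicate 2, against 546 (2.09%) and 429 (1.64%) in fasted WT liver, with 570 (2.18%) and 573 (2.19%) for refed WT liver. The groups overlapped, with a difference of means of -117.5 genes (exact two-sided permutation test, p = 0.667). Without JMJD1C-LKO replicate 2 the difference was 20.5 genes, and without replicate 1 it was -255.5 genes. With all summits the groups did not overlap (1062 and 232 genes against 3147 and 1436, a difference of -1644, exact permutation p = 0.333, the smallest possible), but those lists differ in length. Both JMJD1C-LKO livers marked 62 genes in common (0.237%), both fasted livers 244 (0.932%) and both refed WT livers 300 (1.15%). The 62 genes made up 12.2% of the genes of JMJD1C-LKO replicate 1 and 26.7% of those of replicate 2. In bulk tissue, fewer cells of a type and less signal per cell cannot be told apart.

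Of the 62 genes, 28 were marked in both fasted livers, 25 in both refed WT livers and 19 in all 4, so that most of what the knockout shared with the fasted state it shared with the refed state too. Of the genes of JMJD1C-LKO replicate 1, 36.4% and 30.1% were marked in the fasted livers, beside 44.9% and 38.6% in refed WT liver. For replicate 2 these were 28.9% and 21.1%, and 25.9% and 26.3%. Counted from the WT genes, replicate 1 held 33.9% and 35.7% of the fasted and 40% and 34.2% of the refed ones. Replicate 2 held 12.3% and 11.4%, and 10.5% and 10.6%. With all summits used, 104 genes were marked in both knockout livers, of which 74 were marked in both fasted and 76 in both refed WT livers, and every one had a summit in at least 1 WT liver. The 62 genes came from 55 distinct summits, as divergent neighbours share one, and 51 were protein-coding.

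Of the genes marked in both knockout livers, 19 were marked in all 6 livers. Gm2a, which encodes the activator of lysosomal GM2 ganglioside breakdown, had ranks 295 and 498 in the JMJD1C-LKO, 215 and 310 in the fasted livers, beside 197 and 144 in refed WT liver. Lrpprc, a regulator of mitochondrial mRNAs, had ranks 453 and 429, 222 and 251, and 162 and 96. Both promoters stood lower in the knockout lists than in most WT lists, with Gm2a in JMJD1C-LKO replicate 1 inside the fasted range. Brat1, a partner of the DNA damage kinase ATM, had ranks 169 and 738, 319 and 289, and 181 and 213, and the 2 knockout livers lay on either side of all WT livers. Ppp2r1a, the scaffold of protein phosphatase 2A, had ranks 698 and 760 in the knockout, 546 and 395 in the fasted livers, beside 320 and 264 in refed WT liver, and here the 3 groups did not overlap. Evi5l, Cep43, Opn3, Slc35f5, Zfpm1, Dnpep, Khsrp, Srp54c and the divergent pair Pdcd10 and Serpini1 were marked in all 6 livers too. Ppp2r1a, Zfpm1, Dnpep, Khsrp, Srp54c, Pdcd10 and Serpini1 were named after their values were seen.

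Some of the strongest shared signals came from sequence with copies elsewhere. The summit at Gm20594, with ranks 20 and 34 in the knockout and 14 to 23 in the WT livers, shares 25 bases in a row with the mitochondrial genome. The summits at Mir101c and Tas2r134 were 92.5% and 100% masked. Gm6712 and Gm5165 are predicted genes, Zfp78 belongs to the zinc finger family, and Rn4.5s belongs to a multi-copy RNA family. How reads were split among such copies is not given in the sources used here, so these ranks are uncertain.

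Of the promoters marked in fasted liver alone, 2 were marked in both knockout livers. Among 48 genes marked in both fasted and no refed WT liver, 8 (16.7%) were marked in JMJD1C-LKO replicate 1, 5 (10.4%) in replicate 2 and 3 in both, beside 1.94% and 0.886% of all genes. The 3 genes were Fbxo5, an inhibitor of the anaphase-promoting complex, and the neighbours B3galt6 and Sdf4, which share 1 summit and encode a galactosyltransferase of proteoglycan synthesis and a calcium-binding protein of the Golgi. Fbxo5 had ranks 597 and 599 in the knockout, 242 and 572 in fasted liver, and weaker ranks of 1331 and 947 in refed WT liver. B3galt6 and Sdf4 had ranks 773 and 516 in the knockout and 652 and 278 in the fasted livers, 1192 in WT refed replicate 1 and no summit in WT refed replicate 2. The refed WT livers thus had the Fbxo5 summit too, below the 825 strongest. JMJD1C-LKO replicate 1 also held Klf6, an immediate early transcription factor, at rank 504, against 284 and 386 in the fasted livers, 2253 in WT refed replicate 1 and no summit in WT refed replicate 2. JMJD1C-LKO replicate 2 held Med16, a Mediator subunit, at rank 447, against 277 and 726 in the fasted livers, 1335 in WT refed replicate 1 and no summit in WT refed replicate 2. Apart from Fbxo5 and B3galt6 with Sdf4, no gene of the 48 was held by both. The genes of this paragraph other than Klf6 were named after their values were seen.

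Of the genes marked in refed WT liver alone, 5 were marked in both knockout livers. Among 87 genes marked in both refed and no fasted WT liver, 32 (36.8%) were marked in JMJD1C-LKO replicate 1, 8 (9.20%) in replicate 2 and 5 in both. Of all genes, 1.94% and 0.886% were marked in replicates 1 and 2. Add3, a gamma-adducin of the membrane skeleton, had ranks 192 and 660 in the knockout and 525 and 293 in refed WT liver, 4031 in WT fasted replicate 1 and no summit in replicate 2. Vkorc1l1, a vitamin K epoxide reductase, had ranks 304 and 617 in the knockout, 163 and 160 in refed WT liver, and 2610 and 1044 in fasted liver. Fdxr, the ferredoxin reductase of mitochondrial steroid and heme pathways, had ranks 592 and 601 in the knockout, 283 and 288 in refed WT liver, and 2973 and 2938 in fasted liver. In the fasted livers these promoters had rank 1044 or weaker, or no summit. Nmt2, an N-myristoyltransferase, had ranks 578 and 573, 469 and 393 in the refed livers, 1194 in WT fasted replicate 1 and no summit in replicate 2. The fifth gene, Asmt, had a summit in 92.0% masked sequence. Fdxr and Nmt2 were named after their values were seen. JMJD1C-LKO replicate 1, but not replicate 2, held Eif2ak3 and Eif2ak4, the kinases PERK and GCN2 of the stress response, at ranks 386 and 371.

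Many of these differences between states were differences of rank. Of the 48 fasted genes, 30 and 19 had a weaker summit in WT refed replicates 1 and 2, and of the 87 refed genes, 79 and 59 had one in WT fasted replicates 1 and 2. In the full list of JMJD1C-LKO replicate 1, 19 of the 48 fasted and 61 of the 87 refed genes had a summit. Of the genes marked in all 4 WT livers, 76 (60.8%) were marked in JMJD1C-LKO replicate 1 and 21 (16.8%) in replicate 2.

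Genes marked in both knockout livers and in neither fasted liver numbered 28, of which 12 were among the strongest of a refed WT liver and 16 of no WT liver. Uap1, which makes UDP-N-acetylglucosamine, had ranks 382 and 555 in the knockout, 537 in WT refed replicate 2 and 1283 in replicate 1, and 3454 and 2835 in the fasted livers. Aldh16a1 and Pih1d1, a divergent pair, had ranks 494 and 433 in the knockout, 1141 in WT fasted replicate 1 and 2193 in WT refed replicate 1, with no summit in the other 2 WT livers. Eif2s1, the alpha subunit of translation factor eIF2, shares a summit with Atp6v1d, a subunit of the vacuolar proton pump, with ranks 618 and 606 in the knockout and 1419 in WT fasted replicate 1, and no summit in the other 3 WT livers. The U3 small nucleolar RNA genes Rnu3b1, Rnu3b2, Rnu3b3 and Rnu3b4, which are near-identical copies, were among the strongest of both knockout and no WT liver. Mir6236 had ranks 151 and 90 in the knockout, 1520 and 2346 in the fasted livers and 2236 in WT refed replicate 1. Of the 16 genes, 14 had a weaker summit in WT fasted replicate 1 and 7 in replicate 2. With all summits, 3 other genes were marked in both knockout livers and in no fasted liver, namely 4930539J05Rik, Gm10509 and Ube2d3. These 3, and genes of this group beyond the first 10 by rank, were named after their values were seen.

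**Figure D5:**
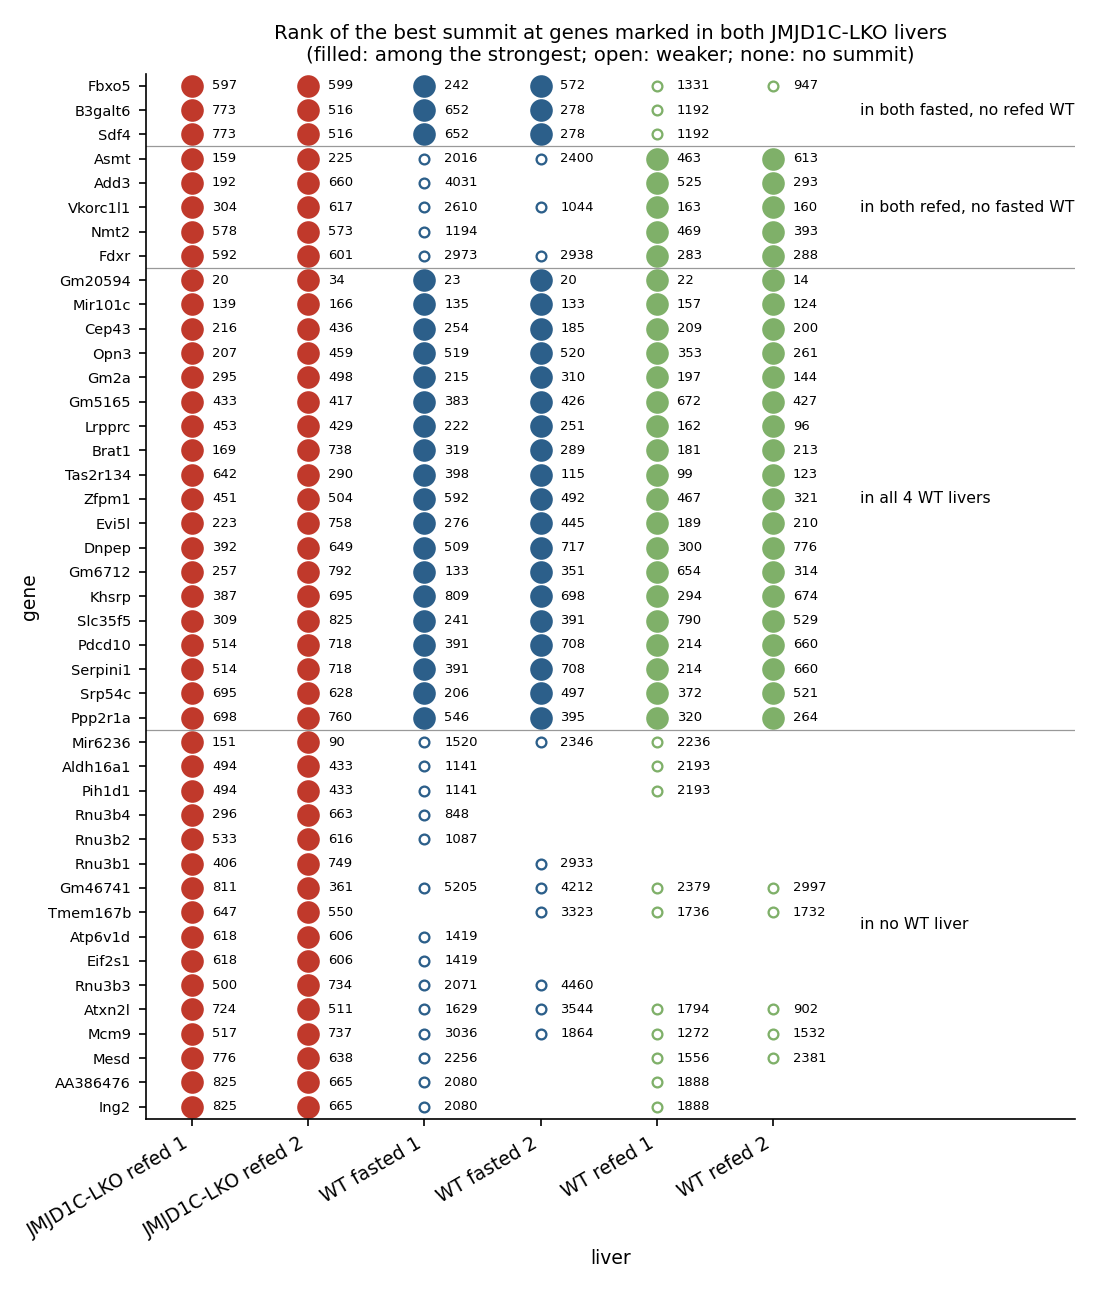
Rows are genes marked in both JMJD1C-LKO livers and columns are livers, and the number beside each circle is the rank of the best summit within 1000 bp of a transcript start (1 is strongest). Filled circles are among the 825 strongest, open circles are weaker, and the lowest block holds the 16 genes that were among the strongest of no WT liver.

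More genes of fasted liver were missing from the knockout lists than were held by both. Of the 244 genes marked in both fasted livers, 119 were marked in neither knockout liver, 97 in 1 and 28 in both. JMJD1C-LKO replicate 1 held 113 of the 244 (46.3%) and replicate 2 held 40 (16.4%), and of the 97 genes 85 were held by replicate 1 and 12 by replicate 2. Of the 300 genes marked in both refed WT livers, replicates 1 and 2 held 139 (46.3%) and 37 (12.3%), so low shares were not particular to fasted genes. Replicate 2 marked 232 genes in all, which limits how many both knockout livers could hold. Of all genes, replicates 1 and 2 held 1.94% and 0.886%. Of the 119, 60 and 68 were marked in WT refed replicates 1 and 2, and 34 had a weaker summit in JMJD1C-LKO replicate 1. Lrrc59 had ranks 162 and 222 in the fasted livers, beside 421 and 670 in refed WT liver and no summit in either knockout liver. Upf2, a nonsense-mediated decay factor, had ranks 285 and 157 in the fasted livers, beside 185 and 190 in refed WT liver, and Tcf3, an E-box transcription factor, 289 and 168, and 382 and 159. Neither had a summit in the knockout lists. Smc2, a condensin subunit, with its antisense neighbour Smc2os, and Paxip1, a DNA damage response factor, had ranks between 158 and 323 in all 4 WT livers and 958 and 1205 in JMJD1C-LKO replicate 1. Rps23, a ribosomal protein gene, had ranks 213 and 293 in the fasted livers, 669 and 282 in the refed and none in the knockout. Lrr1, Bcap29 and 2410002F23Rik likewise had no knockout summit. All 10 were among the strongest of both refed WT livers as well, apart from Bcap29, which had rank 1298 in WT refed replicate 2.

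Few metabolic genes of fasting and feeding were marked, and JMJD1C-LKO replicate 2 marked none of the lists of this paragraph. The shares over all genes to read these counts against were 1.94% and 0.886% in the knockout, 2.09% and 1.64% in fasted WT liver, and 2.18% and 2.19% in refed WT liver, and 1 gene of such a list is already a larger share. Of 27 lipogenic genes, 0 and 0 were marked in the JMJD1C-LKO, 1 and 1 in the fasted livers, beside 0 and 1 in refed WT liver. The fasted gene was Dgat2, of the last step of triglyceride synthesis, with ranks 507 and 551, a rank of 1422 in WT refed replicate 2 and no knockout summit. Of 18 gluconeogenic genes, 1 was marked in JMJD1C-LKO replicate 1, Creb1 at rank 793, and 0 in the other 5 livers. Of 32 genes of fatty acid oxidation and PPAR-alpha, 2 and 0 (6.25% and 0%) were marked in the knockout, 0 and 3 (9.38%) in fasted WT liver, with 3 and 3 (9.38% each) for refed WT liver. Acadm, the medium-chain acyl-CoA dehydrogenase, had rank 313 in JMJD1C-LKO replicate 1, 2797 and 785 in fasted liver, beside 363 and 428 in refed WT liver. Ldha, lactate dehydrogenase, was the 1 of 22 glycolysis genes marked, in both fasted livers at ranks 364 and 818, and had no summit in the knockout or the refed WT livers. Dgat2 and Ldha were named after their values were seen. Of 24 cholesterol synthesis genes, 2 (8.33%) were marked in JMJD1C-LKO replicate 1, 2 and 1 in fasted WT liver and 3 (12.5%) and 2 for refed WT liver. Those of the knockout were Idi1 and Cyp51 at ranks 365 and 552, and both were also among the strongest of 1 or more fasted livers.

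Of a list of 15 metabolic and regulator genes, among them Fasn, Acaca, Srebf1, Scd1, Gpam, Pck1, G6pc and Ppargc1a, none had a promoter summit in either JMJD1C-LKO liver at any score. These named genes had no promoter summit in any fasted or refed WT liver either, so their absence does not set the knockout apart. Acaa1a had one in WT fasted replicate 2 (rank 6890) and WT refed replicate 2 (rank 1167), and Acly had one in WT refed replicate 1 (rank 2010). Jmjd1c itself had no promoter summit in any liver, so these lists cannot check the deletion. The paper reported lower Jmjd1c mRNA by RT-qPCR and no detectable protein by immunoblot in livers of JMJD1C-LKO mice. In the RNA-seq of other refed livers, whose libraries were made from pooled RNA, Jmjd1c stood at 3.86 and 4.14 TPM (transcript counts scaled for length and depth) in JMJD1C-LKO and 4.37 and 4.62 in WT, summed over whole transcripts, which can hold sequence outside the deleted part. A gene without a summit in these short lists was not shown to be closed.

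Checks of the tissue rested on few genes. Of 23 genes of hepatocyte plasma proteins, Alb was the 1 marked in any liver, at rank 808 in JMJD1C-LKO replicate 1, and it had weaker summits in the fasted livers at ranks 1220 and 5064. Of 25 hepatocyte transcription factors, 0 were marked in the knockout livers, and 1 each in WT fasted replicate 2 and WT refed replicate 2. Of 12 markers of macrophages, 12 of endothelium, 10 of stellate cells, 8 of cholangiocytes, 11 of lymphocytes and 8 of erythroid cells, 0 were marked in any liver, and with all summits 1 cholangiocyte marker was found, in WT fasted replicate 1. With 0.886% to 2.19% of all genes marked, lists this short would hold few or no marked genes in any case, so they do not check the cell types.

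Core histone genes were marked in 1 knockout liver. Of 103 core histone genes, 15 were marked in JMJD1C-LKO replicate 2 (14.6%, beside 0.886% of all genes in that liver) and 0 in replicate 1, with 1 in each of the 4 WT livers. They included the neighbours H2ac11 and H2bc11 at rank 377 and H2ac6 and H2bc4 at rank 453. With all summits, 10 histone genes were marked in JMJD1C-LKO replicate 1, 33 and 9 in the fasted livers, beside 19 and 15 in refed WT liver. Of 99 ribosomal protein genes, 0% and 3.03% were marked in the knockout and 4.04% and 3.03% in fasted WT liver, beside 1.94% and 0.886%, and 2.09% and 1.64%, of all genes. The shares of 68 splicing factors were 4.41% in each knockout liver, and 2.94% and 4.41% in fasted WT liver. Translation factors, of which there were 70, stood at 4.29% and 1.43%, and at 4.29% and 5.71%. Of 55 chromatin family genes, 3.64% and 1.82% were marked in the knockout and 5.45% and 9.09% in fasted WT liver. These shares lay above those of all genes, apart from the ribosomal protein genes in JMJD1C-LKO replicate 1, and rest on 5 genes or fewer in each liver. Of 49 proteasome genes, 1 and 2 were marked in the knockout and 0 and 2 in the fasted livers. Of 38 tRNA synthetases, 0 and 0 were marked in the knockout and 3 and 0 in the fasted livers. Of 19 clock genes Nr1d2, a nuclear receptor that represses clock genes, was marked in 5 of 6 livers, at rank 335 in JMJD1C-LKO replicate 1 and 635 and 745 in the fasted livers, and not in JMJD1C-LKO replicate 2. Of 17 H3K9 methylation enzymes, Kdm4a was marked in JMJD1C-LKO replicate 1 (rank 505) and WT fasted replicate 1 (rank 454), and Kdm3a, named after its values were seen, in WT fasted replicate 1 and no knockout liver. Of 25 immediate early and stress genes, Klf6 was marked in the knockout.

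The base composition of promoter summits in the knockout lay with the refed WT livers. Within 100 bp of the summits at transcript starts, median GC was 62.2% and 60.7% in the JMJD1C-LKO livers, 58.2% and 58.2% in the fasted livers, beside 62.2% and 60.7% in refed WT liver. The median number of CpG was 15 and 14 in the knockout, 12 and 12 in the fasted livers, beside 14 and 14 in refed WT liver. The knockout and fasted livers did not overlap (difference 3.23 points of GC, exact permutation p = 0.333, the smallest possible). With the 400 strongest summits the medians were 59.2% and 57.7% against 58.7% and 56.2%, and overlapped (exact permutation p = 0.667). With all summits they were 63.2% and 60.7% against 60.7% and 60.2%. With scores of at least 5 they were 63.2% and 59.7% against 60.2% and 59.2% (exact permutation p = 0.667 each). In both settings JMJD1C-LKO replicate 2 lay below the refed WT livers, which had 64.2% and 61.7%, and 63.7% and 61.7%.

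GGGCGG was found within 100 bp of 63.7% and 44.4% of the promoter summits of the JMJD1C-LKO livers, 42.2% and 48.5% in the fasted livers, beside 63.0% and 63.1% in refed WT liver, and 38.7% of all transcript starts. Replicate 1 lay with the refed and replicate 2 inside the fasted values. The E-box CACGTG was found at 5.85% and 3.74% of promoter summits in the knockout, 4.72% and 5.12% in the fasted livers, beside 5.25% and 5.17% in refed WT liver, so the knockout livers lay on either side of the WT livers. ATTGGC was found at 18.5% and 15.5% in the knockout, 10.8% and 15.4% in the fasted livers, beside 20.6% and 24.3% in refed WT liver. Each of the strings TGTTTAC, CAAAGTCCA and TTGCGCAA was found at 2.47% or fewer of the promoter summits of any liver.

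H3K9me2 summits, from ChIP-seq of other WT livers, lay at 9.68% to 80.6% of the promoters marked in both knockout livers, depending on the ChIP library. Of the 62 genes marked in both JMJD1C-LKO livers, 34 (54.8%) and 50 (80.6%) had an H3K9me2 summit within 1000 bp of a transcript start in fasted ChIP-seq replicates 1 and 2, and 6 (9.68%) and 37 (59.7%) did in refed ChIP-seq replicates 1 and 2, beside 29.3%, 42.7%, 0.233% and 35.1% of all genes. For the 119 fasted genes marked in neither knockout liver the shares were 75.6%, 98.3%, 0% and 86.6%. These lay near the shares of all 244 genes marked in both fasted livers (71.7%, 97.1%, 0.820% and 84.8%). The 300 genes marked in both refed WT livers had 70.7%, 97.3%, 0.333% and 83.0%. ChIP WT refed replicate 1 had a summit at 61 genes in all, and the 6 genes there were Gm20594, Rn4.5s and the 4 Rnu3b copies, all in copied sequence. For the 28 genes marked in both knockout and both fasted livers, 17, 25, 2 and 19 had an H3K9me2 summit in these livers.

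Of the 62 genes, 49 were in the RNA-seq table, with a median of 11.1 and 13.0 TPM in the JMJD1C-LKO and 10.2 and 10.7 TPM in the WT libraries, beside 4.78, 5.14, 4.89 and 4.98 TPM for all genes. The 20 measured genes marked in the knockout and in neither fasted liver had medians of 15.2, 15.5, 15.4 and 17.3 TPM in these libraries. The 111 measured fasted genes marked in neither knockout liver had 8.43, 8.62, 8.39 and 9.58 TPM. All 226 measured genes marked in both fasted livers had 8.74, 9.18, 9.23 and 10.1 TPM. Fasted RNA-seq was not analysed here, so the expression of these genes in the fasted state cannot be set beside their promoters.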

How the data were processed

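ATAC-seq was done on livers of 2 refed JMJD1C-LKO, 2 fasted WT and 2 refed WT mice. Per the labels and methods, the authors used Nextera transposition, cutadapt 1.2.1, BWA and MACS2 2.1.1 (q-value 0.05, fold enrichment of at least 2), called each library on its own, and deposited summits whose score is the −log10 q-value. H3K9me2 ChIP-seq reads were aligned with Bowtie2, kept where unique, and called with MACS2 against input (fold enrichment of at least 2.5), and the deposited summits have the same score. For RNA-seq of refed livers the authors deposited estimated counts per transcript after HISAT2 and Partek (24994 transcripts, 312 without a length here). A deposited table of the authors' own comparisons, with fold changes and p-values, was not used. The submitters' processing notes also name CASAVA, bcl2fastq 2.2 and DESeq2 3.5.

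Here the 825 strongest summits per liver were compared. Summits within 200 bp were shared, and genes (26180, RefSeq, GRCm38.p6) were marked by a summit within 1000 bp of a transcript start. TPM was computed from the deposited estimated counts. Tests were exact two-sided permutations over livers, and intervals are 95% Wilson. Python 3.11.15, numpy 2.4.6, pandas 2.3.3, scipy 1.17.1, pysam 0.24.0 and matplotlib 3.10.9 were used, and scripts were tested on simulated data. Named genes were the first 15 by mean rank in both knockout and both fasted livers, the first 10 in both knockout and neither fasted, the first 10 the other way, up to 5 per list, and the genes the study names. The comparison and the 24 lists (767 genes, all matched) were chosen with earlier results of these data known. Replicate numbers mark separate animals and do not pair the livers. Other numbers of summits, distances, repeat and mitochondrial-like filters, motif windows, a replicate block and leaving out each liver were tried. Values of 1 listed gene are not reported here.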

Additional observations from a re-analysis of the deposited data

How the results depend on the processing

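The direction of most differences between the knockout and the WT livers was not stable, and the cause was not tested. The difference in marked genes (knockout minus fasted, -117.5) ran from -255.5 to 20.5 genes when 1 liver was left out, and kept its sign under the other alternatives. It was -1644 with all summits, -87.5 with the 400 strongest and -82 without masked summits, where the groups did not overlap (exact permutation p = 0.333 each, the smallest possible), and -1062 with scores of at least 5 (p = 0.667, exact). Lists of unequal length enter with all summits and with the score limit. The difference in shared summits (fasted minus refed, -1.06 points) ran from -3.39 to 1.27 points when 1 liver was left out, and was 3.44 points with the 400 strongest summits, 0.469 without masked summits, 0.636 within 50 bp and, in a split chosen after seeing the data, 2.86 away from transcript starts. The difference in WT regions found (3.74 points) was -4.87 points with all summits and -10.8 at transcript starts, and ran from -13.8 to 22.5 points when 1 liver was left out. Leaving out a WT liver also changed which regions counted as fasted or refed. List genes marked in at least 1 knockout liver numbered 42, 69 with all summits, and 18 to 25 with 1 knockout liver. The difference in masked summits (knockout minus fasted, 4.91 points) ran from -6.42 to 16.2 points, and that in CACGTG over all strongest summits (0.0606 points) from -0.848 to 0.970, and was -2.12 points within 250 bp. For genes marked in both knockout and both fasted livers, H3K9me2 in the fasted livers (75% on average) ran from 60.7% to 89.3%, and the median RNA level (10.2 TPM) from 9.24 to 10.3 TPM.

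The replicate block, which permutes within replicate numbers, left the differences at -117.5 genes (exact permutation p = 0.5, the smallest it allows) and -1.06 points (p = 1, exact), and changed no call. The numbers do not pair the animals. Ties at the lowest score and mitochondrial-like summits, alternatives chosen after seeing the data, reversed none of the 3 main differences. Depth per library is not in the files, so a missing summit cannot be told apart from too few reads.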
